A study of Mus musculus with 4 samples.

Results

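Described here are 10 protein-coding genes that lie beside Cyba on mouse chromosome 8, namely Zc3h18, Snai3, Rnf166, Ctu2, Piezo1, Cdt1, Aprt, Galns, Trappc2l and Cbfa2t3. They were chosen by name for their position, from the 22520 genes with a row in the deposited tables. The rule uses no measured value, but earlier results of these data were known when the genes were chosen. Mvd and Zfpm1, which also lie near Cyba, are not among the 10. RNA was sequenced from lineage-negative bone marrow, the cells left after a magnetic depletion kit has removed mature blood cells from flushed femur, tibia and hip marrow. There were 2 libraries of the Cyba-/- genotype (Cyba-KO 1 and 2) and 2 of wild type mice (WT 1 and 2), all on the C57BL/6 strain, with 1 mouse behind each library. The age and sex of the mice, how the Cyba allele was made and whether the mice were littermates are not stated in the labels. Column headers of the Cyba-KO libraries carry the letters CR or CRISP, which the labels do not explain. Every library was quantified in 4 sequencing lanes, which were summed here to between 22363569 and 23646393 estimated read counts per library. The deposited values had lost decimal points, which were restored before use.

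Cyba encodes the small membrane subunit that holds the catalytic subunit of the phagocyte NADPH oxidase in place, so loss of it removes the oxidase from neutrophils and monocytes. The genes around it serve unrelated household and lineage tasks: RNA decay, transfer RNA modification, mechanical sensing, licensing of DNA replication, purine salvage, lysosomal breakdown of sugar chains, vesicle tethering and repression of lineage genes. Genes close to a disrupted locus are of interest in a knockout because they are inherited together with the altered allele and share its chromosomal surroundings. The comparison therefore asks how the RNA of each neighbour differed between Cyba-KO and WT marrow, and how that varied with distance from Cyba.

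For those of the 10 genes that could be tested, log2 fold changes between the genotypes were no larger than 0.47 in either direction. Mvd, beside Cyba but not among the 10, stood at 1.03 and is described below. Of the 10 genes, 9 had enough reads to be tested, 5 with higher and 4 with lower estimated levels in Cyba-KO, and their log2 fold changes (Cyba-KO over WT) ran from -0.22 for Cdt1 to 0.47 for Galns with a median of 0.065. None of the 9 passed at an adjusted p of 0.05 in edgeR's quasi-likelihood test, against 0% of the 13447 genes tested, and none had an unadjusted p below 0.05, against 3.18% of all tested genes (2.77% higher and 0.409% lower in Cyba-KO). None of the 9 passed in DESeq2 either, which called 0.223% of all tested genes, and none had an unadjusted p below 0.05 there or in limma-voom. The median size of the log2 fold change, without regard to sign, was 0.22 for the 9 genes and 0.18 for all tested genes. In 6 of the 9 the Cyba-KO and WT libraries did not overlap, 4 with Cyba-KO above and 2 with Cyba-KO below, where the same held for 33.7% of all tested genes (17.6% above and 16.1% below). With 2 mice a genotype, an exact permutation test of a single gene cannot give a p below 0.333.

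Cyba itself was near the floor in the knockouts, which checks the labels. In CPM, the estimated counts per library size scaled by the trimmed mean of M values, it had 1.25 and 1.37 CPM in Cyba-KO 1 and 2, against 56.8 and 39.1 CPM in WT 1 and 2. The 2 Cyba-KO libraries lay far below both WT libraries. The log2 fold change was -5.19 ± 0.28 (SE, n = 2 each), with the smallest unadjusted p of all tested genes, an adjusted p of 0.312 in edgeR's quasi-likelihood test and an adjusted p of 1.2e-43 in DESeq2. The start region of Cyba is shown because distances below are counted from this gene. It is the RefSeq promoter window of build GRCm38.p6, chr8:122432891-122433190 on the minus strand, from 250 bases before to 50 bases after the start site. Capitals mark matches to GGGCGG.
Cyba: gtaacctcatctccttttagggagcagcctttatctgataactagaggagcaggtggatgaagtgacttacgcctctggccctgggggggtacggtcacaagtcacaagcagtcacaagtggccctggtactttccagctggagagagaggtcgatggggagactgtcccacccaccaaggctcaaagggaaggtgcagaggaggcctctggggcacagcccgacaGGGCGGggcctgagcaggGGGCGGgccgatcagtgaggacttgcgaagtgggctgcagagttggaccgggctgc
Its base composition was 60.7% G and C, and CpG pairs stood at 0.34 of the number that its C and G content would give by chance order.

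**Figure D1:**
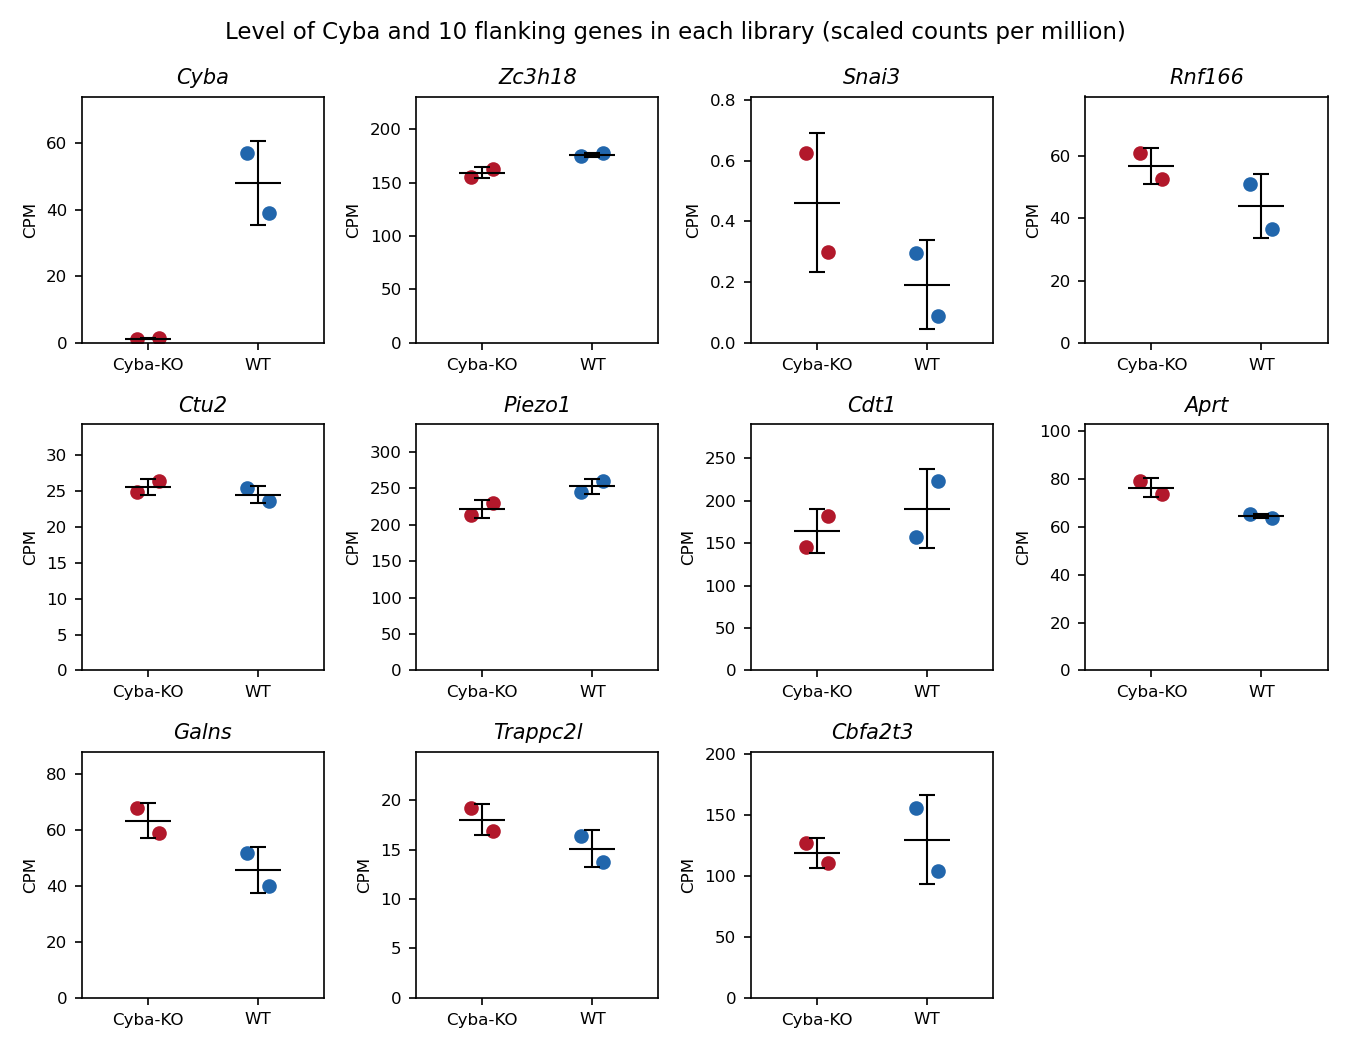
Level of Cyba and the 10 flanking genes in each library, in CPM on linear axes from 0 (each panel has its own scale). Points are libraries, horizontal bars the mean and whiskers the SD of 2 libraries, with Cyba-KO left of WT. Cyba is at 1.25 and 1.37 CPM in Cyba-KO, and among the flanking genes Snai3 alone is below 1 CPM.

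Zc3h18 is the nearest of the 10 genes and the only one on the left, the side of lower coordinates. It lies at chr8:122376609-122417360 on the plus strand in GRCm38 (GENCODE vM21 gene models, as for all gene positions here), with a gap of 7415 bases between its body and that of Cyba. Its protein joins the nuclear cap-binding complex to the RNA decay machinery. Zc3h18 had 155.6 and 163.1 CPM in Cyba-KO 1 and 2, against 174.5 and 177.4 CPM in WT 1 and 2. Both Cyba-KO libraries were below both WT libraries, by a small step. This is a log2 fold change of -0.14 ± 0.11 (SE, n = 2 each; unadjusted p 0.253, adjusted p 0.839, edgeR's quasi-likelihood test), with a 95% interval from -0.43 to 0.15. Of its 4 listed partners, the large cap-binding subunit Ncbp1 had 145.6 and 161.4 CPM in Cyba-KO, against 167.4 and 196.8 CPM in WT, a log2 fold change of -0.25 with an unadjusted p of 0.150 in edgeR. The other 3 partners, Ncbp2, Srrt and Zfc3h1, had log2 fold changes from -0.16 to 0.061.

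On the right of Cyba, Snai3 (chr8:122454208-122460733, minus strand, gap 21277 bases) encodes a zinc finger repressor of the Snail family. It had 14 and 7 reads in Cyba-KO 1 and 2, against 7 and 2 reads in WT 1 and 2. Exact Poisson 95% intervals, which cover counting error only, were 7.65 to 23.5 and 2.81 to 14.4 reads in Cyba-KO 1 and 2, and 2.81 to 14.4 and 0.242 to 7.22 reads in WT 1 and 2. Cyba-KO 2 and WT 1 thus held the same number of reads, and Snai3 did not pass the filter on low counts. Without that filter its log2 fold change was 1.22, with an unadjusted p of 0.161 in edgeR. With the filter and 1 library left out it was tested in 3 fits, at 2.30 without WT 1, 0.63 without WT 2 and 1.66 without Cyba-KO 2, with unadjusted p of 0.0915, 0.497 and 0.142 in edgeR, so its value rests on single libraries. The related Snai1 and Snai2 also failed the filter, at 0.428 CPM at most in any library.

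Rnf166 and Ctu2 stand head to head, with 78 bases between their bodies. Rnf166 (chr8:122466147-122476064, minus strand, gap from Cyba 33216 bases) encodes a RING finger ubiquitin ligase, and Ctu2 (chr8:122476143-122484138, plus strand, gap 43212 bases) encodes a subunit of the enzyme that adds sulphur to the wobble uridine of some transfer RNAs. The RefSeq window of Ctu2, chr8:122475893-122476192 on the plus strand of GRCm38.p6, holds the annotated starts of both genes and is shown for that reason. Capitals mark matches to GGGCGG, here all on the other strand and so written CCGCCC.
Ctu2: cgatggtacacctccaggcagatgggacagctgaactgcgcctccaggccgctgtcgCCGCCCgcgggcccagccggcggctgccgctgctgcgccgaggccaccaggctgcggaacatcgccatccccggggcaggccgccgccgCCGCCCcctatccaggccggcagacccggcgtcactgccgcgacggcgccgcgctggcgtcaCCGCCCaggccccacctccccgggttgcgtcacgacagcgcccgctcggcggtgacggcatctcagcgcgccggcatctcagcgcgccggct
It was 77.0% G and C with a CpG ratio of 1.01, against medians of 52.7% and 0.38 over the 32841 RefSeq windows of mouse genes in the table.

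Rnf166 had 60.9 and 52.8 CPM in Cyba-KO 1 and 2, against 51.2 and 36.6 CPM in WT 1 and 2. Both Cyba-KO libraries were above both WT libraries, with Cyba-KO 2 and WT 1 close together and WT 2 apart at the low end. Its log2 fold change came to 0.37 ± 0.21 (SE, n = 2 each; unadjusted p 0.141, adjusted p 0.839, edgeR's quasi-likelihood test), and it ran from 0.15 without WT 2 to 0.64 without WT 1. Ctu2, which shares the start region, had 24.8 and 26.4 CPM in Cyba-KO 1 and 2, against 25.4 and 23.6 CPM in WT 1 and 2. Its libraries were interleaved, in the order Cyba-KO 2, WT 1, Cyba-KO 1, WT 2. For Ctu2 the log2 fold change was 0.065 ± 0.13 (SE, n = 2 each; unadjusted p 0.652, adjusted p 0.899, edgeR's quasi-likelihood test), with a 95% interval from -0.29 to 0.42, and ran from 0.015 without WT 2 to 0.12 without WT 1. The difference between the fold changes of the 2 genes was not tested.

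No listed partner of either gene had an unadjusted p below 0.05 in edgeR. Ctu1, which forms the thiolase with Ctu2, had 13.1 and 15.2 CPM in Cyba-KO, against 13.4 and 13.7 CPM in WT. The sulphur carrier Urm1 and its activating enzyme Mocs3 had log2 fold changes of -0.037 and 0.29. The ubiquitin ligases listed beside Rnf166 (Rnf114, Rnf125 and Rnf138) had log2 fold changes from -0.0039 to 0.25.

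Piezo1 (chr8:122481698-122551329, minus strand, gap 48767 bases) encodes a channel that opens when the membrane is stretched and is known for setting red cell volume. Its 3' end runs into Ctu2 from the opposite strand over 2441 bases, all of them exonic in both gene models, which is 47.3% of the exon bases of Ctu2 and 24.6% of those of Piezo1. The library kit does not keep the strand of the RNA, so reads from that overlap cannot be told apart by strand. Piezo1 had 212.7 and 229.9 CPM in Cyba-KO 1 and 2, against 245.3 and 260.1 CPM in WT 1 and 2. Both Cyba-KO libraries were below both WT libraries. The log2 fold change was -0.19 ± 0.12 (SE, n = 2 each; unadjusted p 0.173, adjusted p 0.839, edgeR's quasi-likelihood test), with a 95% interval from -0.51 to 0.12, and was -0.12 without Cyba-KO 1. Its only relative, Piezo2, was at most 0.557 CPM in any library and was not tested.

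**Figure D2:**
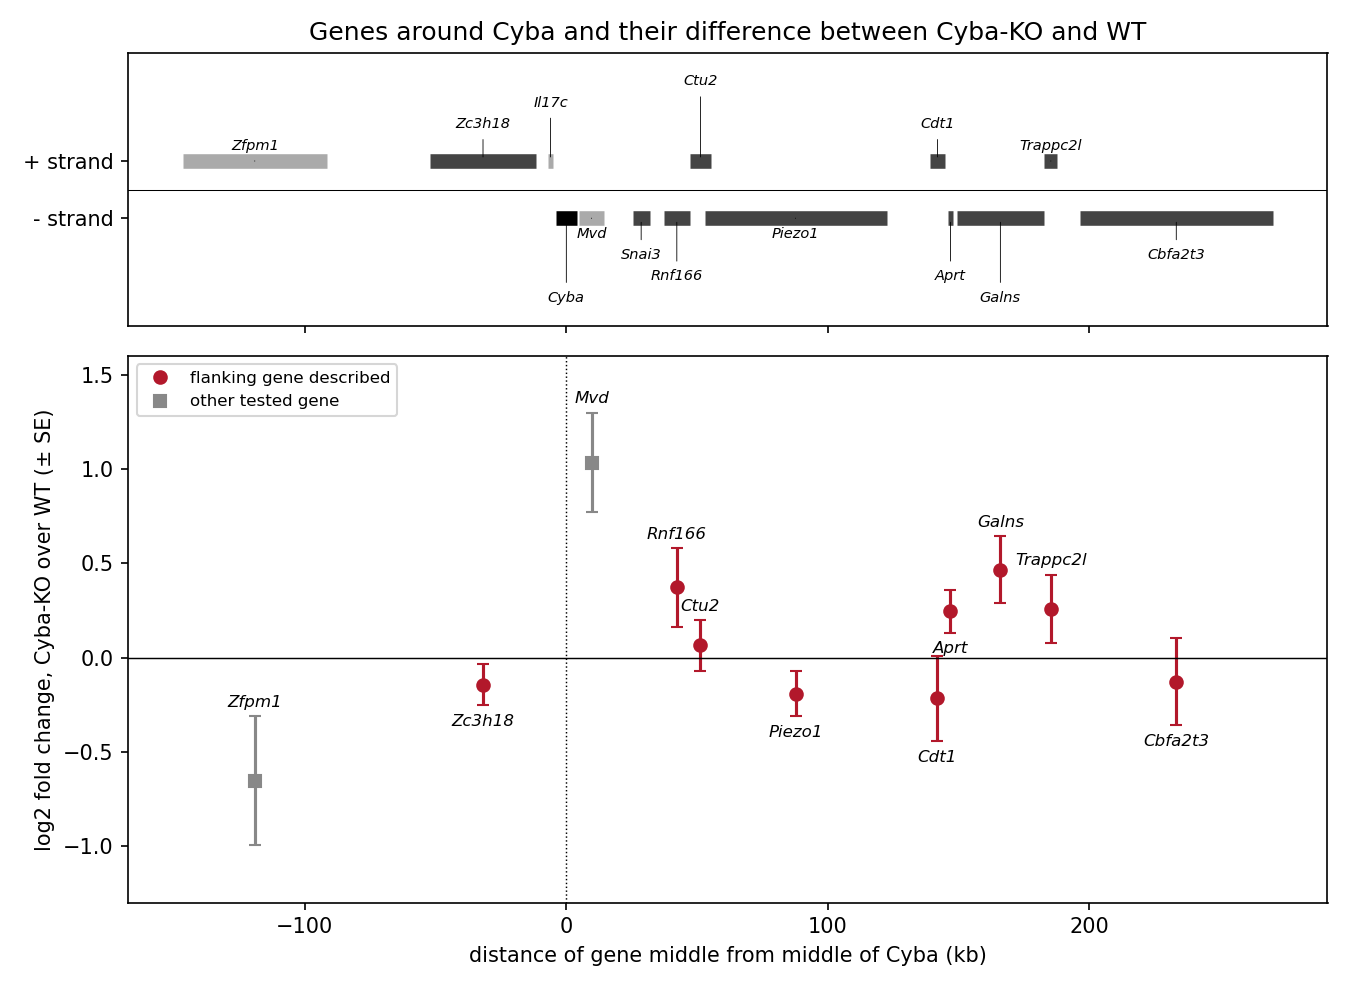
Upper panel, position and strand of genes around Cyba, as distance from the middle of Cyba in kb (dark bars, the 10 flanking genes; grey bars, other genes). Lower panel, log2 fold change of Cyba-KO over WT with its SE for each tested gene; Cyba (-5.19), Snai3 and other genes under the filter, and the read-through gene Gm20388 are left out. The flanking genes lie between -0.22 and 0.47, and Mvd, next to Cyba, is highest at 1.03.

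Cdt1, Aprt and Galns follow each other beyond 130 kb. Cdt1 (chr8:122568015-122573554, plus strand, gap 135084 bases) encodes the factor that loads the replicative helicase onto origins before S phase. It had 146.1 and 182.4 CPM in Cyba-KO 1 and 2, against 157.9 and 223.5 CPM in WT 1 and 2. The groups overlapped, since Cyba-KO 2 was above WT 1. This is a log2 fold change of -0.22 ± 0.23 (SE, n = 2 each; unadjusted p 0.391, adjusted p 0.839, edgeR's quasi-likelihood test), and without WT 2 its sign turned, to 0.057. The RefSeq window of Cdt1, chr8:122567765-122568064 on the plus strand of GRCm38.p6, is shown because among the windows of these genes it alone held TTTGGCGC, a form of the letters that E2F factors are known to bind. Capitals mark matches to GGGCGG and TTTGGCGC.
Cdt1: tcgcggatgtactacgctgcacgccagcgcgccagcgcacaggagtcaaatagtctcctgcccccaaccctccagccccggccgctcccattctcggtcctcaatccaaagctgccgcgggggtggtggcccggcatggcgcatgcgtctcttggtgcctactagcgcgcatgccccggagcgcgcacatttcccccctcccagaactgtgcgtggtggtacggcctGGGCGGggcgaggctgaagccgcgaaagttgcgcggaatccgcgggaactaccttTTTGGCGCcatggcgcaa
TTTGGCGC, searched on both strands, occurred in 0.515% of all 32841 windows, and the related TTTCGCGC in 0.323% of them and in none of the windows of these genes.

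The 5 replication partners listed with Cdt1 all had lower estimates in Cyba-KO, with a median log2 fold change of -0.29 beside -0.0065 for all tested genes, and none passed. The origin subunit Orc1 had 27.0 and 34.6 CPM in Cyba-KO 1 and 2, against 34.6 and 53.6 CPM in WT 1 and 2, a log2 fold change of -0.52 (unadjusted p 0.120, adjusted p 0.839, edgeR). The helicase subunit Mcm2 had 370 and 406 CPM in Cyba-KO 1 and 2, against 431 and 513 CPM in WT 1 and 2, a log2 fold change of -0.28 (unadjusted p 0.125, adjusted p 0.839, edgeR). WT 2 was the highest library for Cdt1, Orc1 and Mcm2 alike. It was also the highest for the summed level of 5 cell division markers (Mki67, Top2a, Ccnb1, Cdk1 and Mcm5), which was 2343 and 2861 CPM in Cyba-KO 1 and 2, against 2672 and 3616 CPM in WT 1 and 2. The 5 markers were all lower in Cyba-KO by estimate, 1 of them with no overlap (16.1% of all tested genes with Cyba-KO below), and none passed. The part of dividing cells in the values of Cdt1 was not tested.

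Aprt (chr8:122574635-122576909, minus strand, gap 141704 bases) encodes the enzyme that salvages adenine into AMP. Its 3' end points at that of Cdt1 across 1080 bases. Aprt had 79.2 and 73.6 CPM in Cyba-KO 1 and 2, against 65.1 and 63.8 CPM in WT 1 and 2. Both Cyba-KO libraries were above both WT libraries, and the spread within each genotype was small. Its log2 fold change came to 0.24 ± 0.11 (SE, n = 2 each; unadjusted p 0.0887, adjusted p 0.839, edgeR's quasi-likelihood test), with a 95% interval from -0.056 to 0.55. The other purine salvage genes ran the opposite way by estimate, Hprt at -0.079 and Adk at -0.35 on the log2 scale. Adk had 65.1 and 76.3 CPM in Cyba-KO 1 and 2, against 74.4 and 105.8 CPM in WT 1 and 2 (unadjusted p 0.172, edgeR).

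Galns had the lowest unadjusted p of the 10 genes. It lies at chr8:122578242-122611463 on the minus strand, 145311 bases from Cyba, and encodes a lysosomal sulphatase that helps to break down keratan and chondroitin sulphate. Galns had 67.7 and 58.8 CPM in Cyba-KO 1 and 2, against 51.7 and 39.9 CPM in WT 1 and 2. All 4 libraries were spaced apart, Cyba-KO 1 highest and WT 2 lowest, with no overlap of the genotypes. The log2 fold change was 0.47 ± 0.18 (SE, n = 2 each; unadjusted p 0.0539, adjusted p 0.839, edgeR's quasi-likelihood test), with a 95% interval from -0.012 to 0.94, and DESeq2 gave an unadjusted p of 0.0592. It ran from 0.29 without WT 2 to 0.67 without WT 1. The 2 lysosomal partners read here, Glb1 and Arsb, were also higher in Cyba-KO by estimate, at 0.23 and 0.53 on the log2 scale, with overlapping groups and no unadjusted p below 0.05 in edgeR.

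Trappc2l (chr8:122611640-122616660, plus strand, gap 178709 bases) stands head to head with Galns across 176 bases and encodes a subunit of the TRAPP complexes, which tether transport vesicles. The RefSeq window of Trappc2l, chr8:122611376-122611675 on the plus strand of GRCm38.p6, reaches over the annotated start of Galns and is shown because both genes had higher estimates in Cyba-KO. Capitals mark matches to GGGCGG and CCAAT.
Trappc2l: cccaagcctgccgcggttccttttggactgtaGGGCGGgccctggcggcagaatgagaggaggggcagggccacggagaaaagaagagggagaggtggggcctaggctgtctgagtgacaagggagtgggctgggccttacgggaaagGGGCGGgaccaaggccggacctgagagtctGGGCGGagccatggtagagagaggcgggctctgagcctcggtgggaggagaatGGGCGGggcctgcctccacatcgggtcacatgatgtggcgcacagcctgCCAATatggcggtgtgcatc
This window was 65.3% G and C with a CpG ratio of 0.52, GGGCGG occurred in 35.7% of all windows and CCAAT in 37.4%. Trappc2l had 19.2 and 16.9 CPM in Cyba-KO 1 and 2, against 16.4 and 13.8 CPM in WT 1 and 2. The groups did not overlap, though Cyba-KO 2 and WT 1 nearly met. This is a log2 fold change of 0.26 ± 0.18 (SE, n = 2 each; unadjusted p 0.221, adjusted p 0.839, edgeR's quasi-likelihood test). It ran from 0.14 without WT 2 to 0.40 without WT 1. The 8 TRAPP subunit genes of the partner list, which does not hold every subunit, had log2 fold changes from -0.029 to 0.18 with a median of 0.078, 3 of them with Cyba-KO above WT and no overlap (17.6% of all tested genes), and none had an unadjusted p below 0.05.

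Cbfa2t3 (chr8:122625141-122699109, minus strand, gap 192210 bases) is the farthest of the 10 genes and encodes a corepressor that works with Tal1, Gata1 and related factors in blood stem cells and red cell precursors. It had 127.2 and 110.2 CPM in Cyba-KO 1 and 2, against 155.2 and 104.2 CPM in WT 1 and 2. Both Cyba-KO libraries lay inside the range of the WT pair. Its log2 fold change came to -0.13 ± 0.23 (SE, n = 2 each; unadjusted p 0.605, adjusted p 0.886, edgeR's quasi-likelihood test), and without WT 1 its sign turned, to 0.19. Of its 9 listed partners 4 were higher and 5 lower in Cyba-KO by estimate. Tal1, a master factor of blood formation, had 100.02 and 154.5 CPM in Cyba-KO 1 and 2, against 146.0 and 222.4 CPM in WT 1 and 2, a log2 fold change of -0.53 (unadjusted p 0.155, edgeR). Its relative Lyl1 had 144.8 and 135.8 CPM in Cyba-KO 1 and 2, against 128.5 and 97.5 CPM in WT 1 and 2, a log2 fold change of 0.31 (unadjusted p 0.139, edgeR). Lyl1 did not overlap between the genotypes, and Tal1 did.

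Over the 39 partner genes read for the 10 neighbours, 36 were tested, 16 with higher and 20 with lower estimates in Cyba-KO, and their median log2 fold change was -0.0041. None passed in either direction, and none had an unadjusted p below 0.05 in edgeR's quasi-likelihood test. The 6 with the smallest p were Orc1, Mcm2, Lyl1, Ncbp1, Tal1 and Adk, whose values are given above.

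Other genes between and around the 10 were read with the same fit. Within 250 kb of Cyba on either side, 24 genes were annotated, 17 had a row in the tables and 12 were tested: 9 of the 10 genes, Mvd, Zfpm1 and the read-through gene Gm20388. Mvd, which encodes an enzyme of cholesterol synthesis, lies 670 bases to the right of Cyba on the same strand. Mvd had 17.9 and 14.4 CPM in Cyba-KO 1 and 2, against 9.28 and 6.48 CPM in WT 1 and 2. Both Cyba-KO libraries were well above both WT libraries. Its log2 fold change was 1.03 ± 0.26 (SE, n = 2 each; unadjusted p 0.0142, adjusted p 0.839, edgeR's quasi-likelihood test), and DESeq2 gave an adjusted p of 0.333. It was the only tested gene of the window with an unadjusted p below 0.05, beside 3.18% of all tested genes.

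Zfpm1, a cofactor of Gata1 in red cell and platelet precursors, lies on the left of Cyba at 87524 bases. It had 98.9 and 176.2 CPM in Cyba-KO 1 and 2, against 179.7 and 253.4 CPM in WT 1 and 2. Cyba-KO 2 and WT 1 were nearly equal, and the log2 fold change was -0.65 ± 0.34 (SE, n = 2 each; unadjusted p 0.121, adjusted p 0.839, edgeR's quasi-likelihood test). It ran from -1.13 without Cyba-KO 2 to -0.28 without Cyba-KO 1. Gm20388 spans Cyba in the annotation and shares all its exon bases with other genes, so its log2 fold change of 0.067 cannot be assigned to it alone. Il17c, between Zc3h18 and Cyba, had 2 and 1 reads in Cyba-KO, against 5 and 3 reads in WT, and was not tested.

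Distance classes were compared as a description, with no test. The 6 tested genes under 50 kb from Cyba, 4 of them among the 10, had a median log2 fold change of 0.066 and ranged from -0.19 to 1.03. The 6 at 50 to 250 kb, 5 of them among the 10, had a median of 0.058 and ranged from -0.65 to 0.47. The 26 tested genes at 250 to 1000 kb had a median of 0.0075 and ranged from -1.28 to 0.64. Without regard to sign, the median sizes in these classes were 0.17, 0.25 and 0.15, and the genotypes did not overlap for 4 of 6, 4 of 6 and 8 of 26 genes, against 33.7% of all tested genes. With distance counted between start sites, the median log2 fold change within 250 kb was 0.15 over 10 tested genes, against 0.066 over 12 by the gap between gene bodies. Over all 709 tested genes of chromosome 8 the median was -0.016. Within each distance class genes with higher and with lower estimates stood side by side, 4 and 2 under 50 kb, 3 and 3 at 50 to 250 kb, and 14 and 12 farther out. Neighbours that share a start region stood at 0.37 ± 0.21 and 0.065 ± 0.13 for Rnf166 and Ctu2, and at 0.47 ± 0.18 and 0.26 ± 0.18 for Galns and Trappc2l (SE), and no difference within a pair was tested.

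Several of the 10 genes had the same order of libraries. Rnf166, Aprt, Galns and Trappc2l each ran Cyba-KO 1, Cyba-KO 2, WT 1, WT 2 from high to low CPM, as did Mvd. Snai3, which was not tested, had that order only through scaling, with 7 reads in both Cyba-KO 2 and WT 1. The share of all tested genes with this order, or with its reverse, was not counted. Cyba-KO was above WT in any order for 17.6% of all tested genes, and below it for 16.1%. The summed level of 4 monocyte markers (Csf1r, Ccr2, Ly6c2 and F13a1) had the order of Rnf166. It was 2435 and 1935 CPM in Cyba-KO 1 and 2, against 1670 and 1077 CPM in WT 1 and 2. Csf1r, Ly6c2 and F13a1 each had that order, while Ccr2 was higher in Cyba-KO 2 (240.0 CPM) than in Cyba-KO 1 (215.1 CPM). These 4 markers were all above WT in both Cyba-KO libraries, where 17.6% of all tested genes were, with 2 at an unadjusted p below 0.05 and higher, where 2.77% of all tested genes were, and none passed. Zc3h18 and Piezo1 ran exactly the other way, WT 2, WT 1, Cyba-KO 2, Cyba-KO 1, as did Zfpm1.

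Levels of erythroid markers differed between libraries of the same genotype. The summed level of 5 erythroid markers (Klf1, Epor, Car1, Slc4a1 and Alas2) was 443 and 1388 CPM in Cyba-KO 1 and 2, against 953 and 2178 CPM in WT 1 and 2. This is the library order of Cdt1. All 5 were lower in Cyba-KO by estimate with overlapping groups, and none passed. The 4 granulocyte-monocyte progenitor markers (Mpo, Elane, Prtn3 and Ctsg) summed to 15507 and 10167 CPM in Cyba-KO 1 and 2. In WT 1 and 2 they summed to 11218 and 5461 CPM. All 4 were higher in Cyba-KO by estimate, 2 of them with no overlap (17.6% of all tested genes with Cyba-KO above), and none passed. Those 2, Elane and Prtn3, had the library order of Rnf166, while Mpo and Ctsg had WT 1 above Cyba-KO 2. WT 2, the lowest library for Rnf166, Galns and Trappc2l, was thus also lowest for monocyte and granulocyte-monocyte markers and highest for erythroid ones.

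The other marker lists differed in library order. The 6 stem and progenitor markers summed to 531 and 511 CPM in Cyba-KO 1 and 2. In WT 1 and 2 they summed to 572 and 482 CPM, so the sum had the library order of Cbfa2t3. Hoxa9 and Mecom each had that order, and Kit, Cd34, Procr and Slamf1 did not. Kit and Cd34, which make up nearly all of the sum, differed from each other, Kit being highest in WT 2 and Cd34 lowest there. The 8 neutrophil markers summed to 1018 and 4485 CPM in Cyba-KO 1 and 2, against 418 and 1229 CPM in WT 1 and 2, all higher by estimate, 2 with no overlap (17.6% of all tested genes) and S100a8 alone at an unadjusted p below 0.05 in edgeR (0.0281). The 3 megakaryocyte markers with values summed to 288 and 288 CPM in Cyba-KO 1 and 2. In WT 1 and 2 they summed to 353 and 262 CPM. Itga2b held most of that sum, and was highest in WT 1 and lowest in WT 2 (237.7 and 157.7 CPM), as Cbfa2t3 was. Gp9 was highest in WT 2 (15.2 CPM), and both Gp9 and Pf4 were lowest in Cyba-KO 1 (6.69 and 67.1 CPM), unlike Cbfa2t3. B cell markers summed to 34.8 and 42.0 CPM in Cyba-KO 1 and 2, against 21.8 and 12.4 CPM in WT 1 and 2, and T cell markers to 14.9 and 7.92 CPM in Cyba-KO 1 and 2, against 10.3 and 4.60 CPM in WT 1 and 2. The progenitor markers Kit and Cd34, which the depleted marrow should hold, were between 155.8 and 301.4 CPM in every library. They were the highest of the stem and progenitor list. Hoxa9 was between 15.7 and 23.5 CPM, and Mecom, Slamf1 and Procr were between 0.492 and 6.30 CPM. No marker with values was at 0 in any library, none passed, and their part in the values of the flanking genes was not tested. In whole cell populations such as these, fewer cells of a type and less RNA per cell cannot be told apart.

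**Figure D3:**
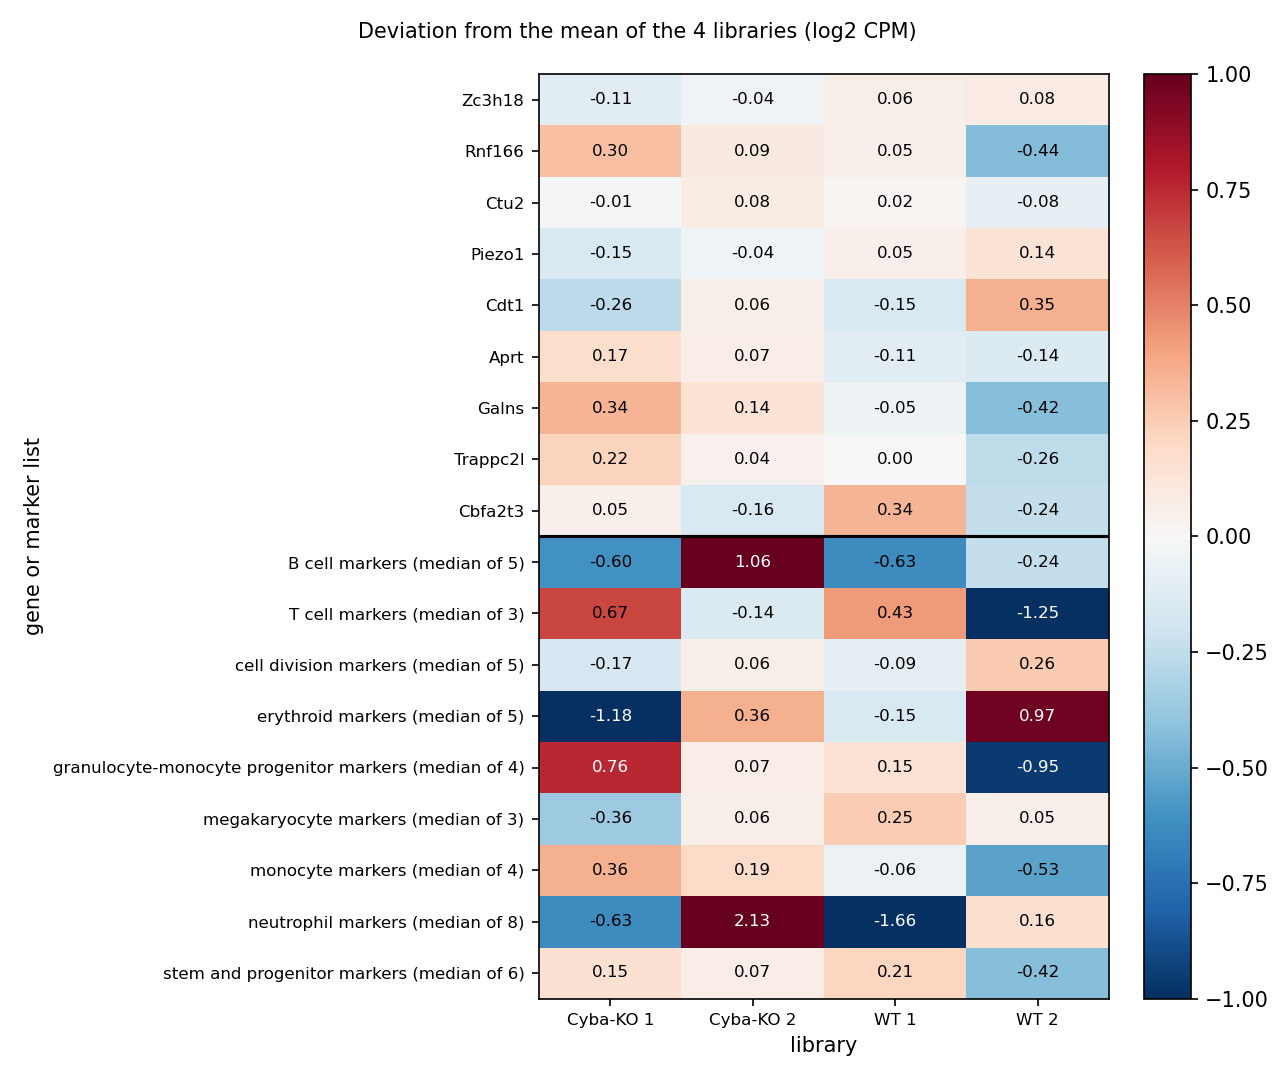
Deviation of each tested flanking gene (upper block) and of the median of each marker list (lower block) from its mean over the 4 libraries, in log2 CPM, with colours ending at ±1. Rnf166, Aprt, Galns and Trappc2l are highest in Cyba-KO 1 and lowest in WT 2, as are the monocyte, granulocyte-monocyte progenitor and T cell lists. These 3 lists and the erythroid, neutrophil and B cell lists move over a wider range than any flanking gene.

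Levels per transcript length, given as TPM, placed the neighbours in order of abundance. In WT marrow Aprt led at 116 ± 4.11 TPM, with Cdt1 at 115 ± 26.9 TPM (SD, n = 2), 2 levels that do not differ beyond their spread. Cyba followed at 82.3 ± 20.1 TPM, then Piezo1 at 64.2 ± 1.27 TPM, Zc3h18 at 52.5 ± 0.0781 TPM and Rnf166 at 39.4 ± 9.97 TPM (SD, n = 2). Cbfa2t3 at 33.8 ± 8.01 TPM, Ctu2 at 25.8 ± 4.85 TPM and Galns at 22.5 ± 3.56 TPM (SD, n = 2) followed. Neighbours in this order whose intervals of 1 SD meet are Aprt and Cdt1, Cdt1 and Cyba, Cyba and Piezo1, Rnf166 and Cbfa2t3, Cbfa2t3 and Ctu2, and Ctu2 and Galns. Snai3 was lowest at 0.114 ± 0.0867 TPM (SD, n = 2). For Trappc2l the lost decimal points of the TPM values could not be settled, so its TPM level is not given.

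In Cyba-KO marrow the leading genes were the same, Aprt at 131 ± 7.08 TPM, Cdt1 at 93.5 ± 18.8 TPM and Piezo1 at 54.0 ± 7.46 TPM (SD, n = 2). Next came Rnf166 at 48.7 ± 5.14 TPM, Zc3h18 at 42.5 ± 5.41 TPM, Ctu2 at 28.9 ± 6.03 TPM, Cbfa2t3 at 28.8 ± 3.71 TPM and Galns at 25.5 ± 1.06 TPM (SD, n = 2). Cyba stood at 2.33 ± 0.280 TPM and Snai3 at 0.267 ± 0.104 TPM (SD, n = 2). Rnf166 stood above Zc3h18 in this order, a pair whose intervals of 1 SD meet in Cyba-KO.

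On the TPM scale 2 of the gaps between genotypes closed. Galns had 26.26 and 24.76 TPM in Cyba-KO 1 and 2, against 24.97 and 19.94 TPM in WT 1 and 2. Rnf166 had 52.4 and 45.1 TPM in Cyba-KO 1 and 2, against 46.4 and 32.3 TPM in WT 1 and 2. Both genes thus overlapped between the genotypes in TPM while they did not in CPM. Aprt kept its gap, with 125.8 and 135.9 TPM in Cyba-KO 1 and 2, against 113.5 and 119.3 TPM in WT 1 and 2.

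The lanes show how precise each kind of value is. After scaling for lane depth, the median coefficient of variation of read counts between the 4 lanes of a library was 2.49% for Galns, 5.30% for Ctu2 and 4.65% for Cbfa2t3, where counting error alone gives 5.56%, 8.32% and 3.84%. TPM varied more, with 11.2% for Galns, 20.2% for Ctu2, 18.3% for Cbfa2t3 and 10.3% for Piezo1. In WT 1, Ctu2 had between 136 and 164 reads a lane but between 13.9 and 31.0 TPM. In Cyba-KO 2, Cbfa2t3 had between 589 and 713 reads a lane but between 21.3 and 35.2 TPM. Lanes repeat the sequencing of 1 library, so this spread is not that between mice, and the tests above used the summed counts.

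**Figure D4:**
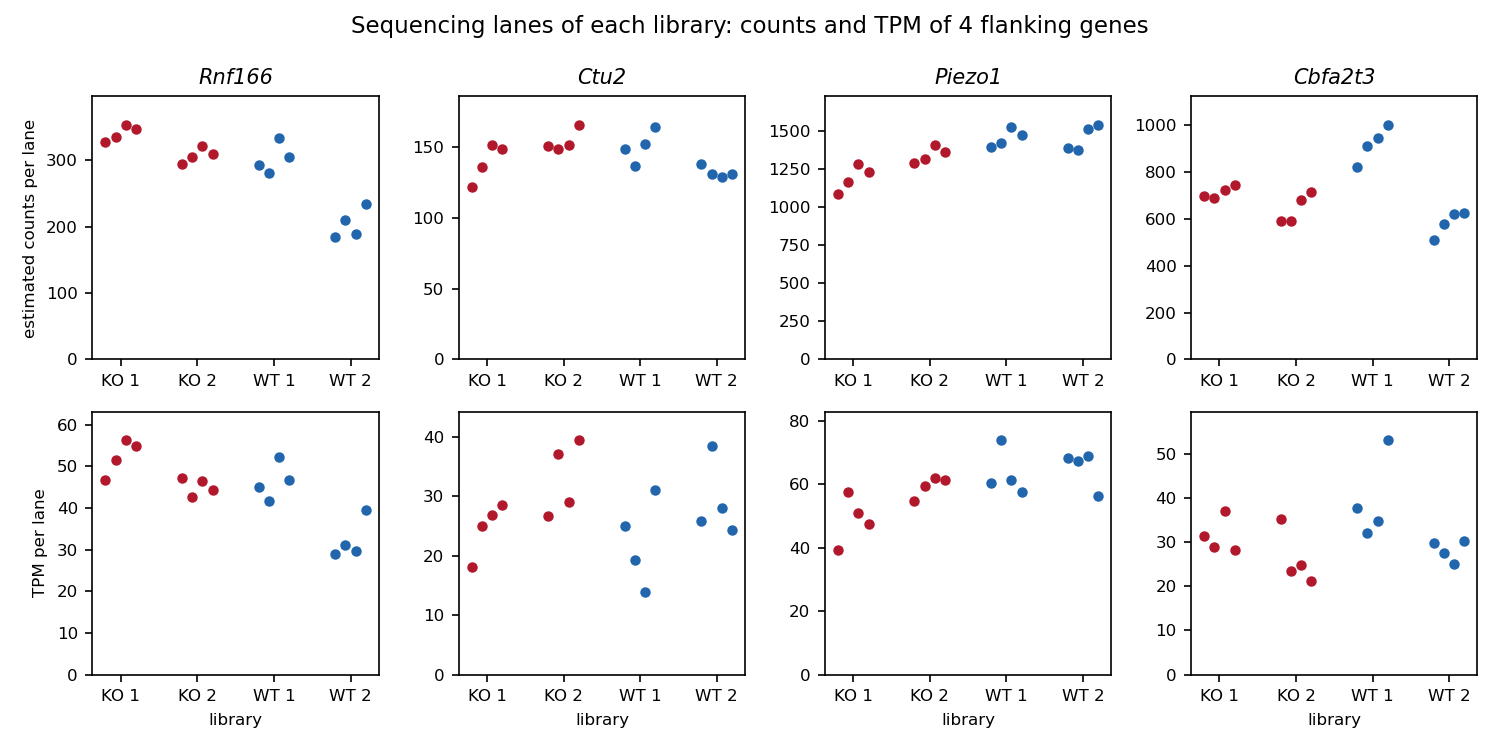
Estimated counts (upper row) and TPM (lower row) of Rnf166, Ctu2, Piezo1 and Cbfa2t3 in each of the 4 lanes of each library, with Cyba-KO in red and WT in blue on axes from 0. Points of one library lie close together in counts and spread in TPM, as for Ctu2 in WT 1, with 13.9 to 31.0 TPM.

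The start regions of these genes had letters in common. RefSeq windows were found for 8 of the 10 genes, Snai3 and Galns being the others, and all 8 held GGGCGG on one strand or the other, against 35.7% of all windows. The 8 genes had 11 windows, and those of Rnf166 and Ctu2 overlap, so a count by gene is set beside a share by window. These windows were 57.7% to 81.7% G and C, against a median of 52.7% over all windows. The part of base composition in the matches was not tested. TATAAA, present in 13.6% of all windows, was found for Piezo1 alone. CCAAT was found for Trappc2l and, overlapping a GGGCGG match on the other strand, for Cbfa2t3, and CCGGAAG, present in 8.86% of all windows, for Zc3h18 alone. Such matches describe the letters and not bound sites, and the genes with higher and with lower estimates in Cyba-KO both held GGGCGG.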

How the data were processed

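RNA of 4 libraries was read in 4 lanes each, and 1 table of estimated counts and 1 of TPM per lane were used. Per the submitters' processing notes, Salmon, DESeq2 and build GRCm38 were used, and per the labels' protocols libraries were made with the Illumina TruSeq RNA kit, which does not mark strand. In the deposited estimated counts and TPM the decimal points of most values with 6 significant digits were lost. More than 1 reading was thus possible for 24.8% of counts and for 53.2% of TPM values. Each gene was repaired here by agreement between lanes, between counts and TPM through transcript length, and loosely between libraries. Genes were kept where the library totals were expected to err by no more than 5% or 1 read: 21729 of 22520 genes, with Cyba and all 10 flanking genes among them. The tie between libraries pulls ambiguous genes towards equal levels.

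Lane counts were summed, rounded and tested with edgeR 4.0.16 (trimmed mean of M values, filterByExpr by genotype, quasi-likelihood F test, Benjamini-Hochberg over 13447 genes, threshold 0.05), under R 4.3.3. DESeq2 1.42.0 and limma 3.58.1 were alternatives. The repair and the test were tested on simulated data. SEs are the log2 fold change over the root of F. The fit used all 4 libraries with no block. The rule named Cyba, the 10 genes, the tested genes within 250 kb, and the 6 partners with the smallest p; the other listed partners, markers and low genes named were chosen after their values were seen. The 10 genes and the partner and marker lists were chosen with earlier results of these data known. Of the partner list 1 gene and of the erythroid list 1 gene are not reported here. The megakaryocyte marker Gp1bb was left out by the repair. Gene symbols matched GENCODE vM21 for 22357 of the 22520 genes. Sequences are from RefSeq.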

Additional observations from a re-analysis of the deposited data

How the results depend on the processing

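No flanking gene passed under any alternative except Galns with the replicate number as a block (log2 fold change 0.47, adjusted p 0.0322). That block moved the genes passing to 1095 of 13447, the flanking genes passing to 1 and those within 250 kb to 3 (Galns, Mvd at adjusted p 0.0227 and Zfpm1 at 0.0245), with Cyba at -5.17. Under it 5 of the 9 flanking genes had an unadjusted p below 0.05 in edgeR, against 3769 of 13447 genes. With no block and no low-count filter, 1 of 10 did, against 587 of 21727 genes. With 2 pairs the numbers are only shared labels; the deviations of libraries with one number correlated across genes, at 0.628. Genes passing numbered 0 in the edgeR quasi-likelihood test (427 at an unadjusted p below 0.05), 30 in DESeq2, 28 in edgeR's likelihood ratio test, 0 in limma-voom, and 1 with limma on log2(TPM + 1) and 1 on log2(TPM + 0.1). Leaving out 1 library gave 0 to 3, with 1 without Cyba-KO 1 and 3 without Cyba-KO 2. Cyba was past the threshold in DESeq2 (-5.20), the likelihood ratio test (-5.19) and on log2(TPM + 1) (-4.63) and log2(TPM + 0.1) (-5.07), and ran from -5.43 to -4.89 with 1 library left out. The median log2 fold change within 250 kb was 0.066 over 12 tested genes. With 1 library left out it ran from 0.037 to 0.26 (0.26 without WT 1, 0.19 without Cyba-KO 2). On log2(TPM + 1) and log2(TPM + 0.1) it was -0.092 and -0.094, over 10 genes that do not include Mvd and Trappc2l. The medians over all tested genes were -0.068 and -0.073 on these scales, against -0.0065 in the main fit. How far the set of genes and the scale each moved the median within 250 kb was not tested. Signs turned for Cdt1 without WT 2 (0.057; range -0.44 to 0.057), Cbfa2t3 without WT 1 (0.19; range -0.39 to 0.19) and Gm20388 without WT 2 (-0.10) and without Cyba-KO 1 (-0.058); the other 7 tested flanking genes kept theirs in every alternative that gave a value. Ctu2 had no value with the repair untied between libraries, and Trappc2l and Mvd none on the TPM scales. With 2 mice a genotype, intervals of the flanking genes reach log2 changes of 0.94 upward and -0.82 downward.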
